A study of Mus musculus with 17 samples.

Results

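Pi16 adventitial fibroblasts of mouse skin were taken as the stromal cells with at least 1 unique molecular identifier (UMI, a counted transcript) of Pi16 and none of Cthrc1. A cell counted as stromal when it held at least 200 genes, at most 20% mitochondrial UMIs, at least 10 UMIs of Col1a1 and Col1a2 together, and no UMI of Ptprc (the leukocyte antigen CD45) or Pecam1 (the endothelial antigen CD31). In all, 525 cells met the rule, of 2632 stromal cells, 30085 kept cells and 31972 skin barcodes, and the whole series held 107534 barcodes in 17 libraries. The comparison classes were the 1150 stromal cells with neither transcript, called other stroma here, and the 957 with Cthrc1, called Cthrc1 cells, of which 179 also held Pi16. Members were thus chosen by their values of Pi16, Cthrc1, the pair of collagens, Ptprc and Pecam1, which are given as a description only.

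The skin libraries came from 8-week-old mice in which a PDGFRb-Cre driver switched on the GFP of the Z/EG reporter, and the GFP+ cells were sorted. SARAWT mice carried the driver and the reporter. SARATg mice had in addition a Cre-dependent human ZFYVE9 cDNA in the Rosa26 locus behind a CAG promoter, where ZFYVE9 encodes SARA. By the study's account SARA was first described as an adaptor for the TGF-beta receptor, and later work found TGF-beta signalling to proceed without it. Mice received PBS or bleomycin, an agent that breaks DNA and is used to induce skin fibrosis, under the skin, which gave 3 SARAWT PBS, 3 SARAWT bleomycin, 1 SARATg PBS and 1 SARATg bleomycin library. By the labels bleomycin was given at 20 mg/kg, 3 times a week for 2 weeks, whereas the study's methods describe daily injections. The driver is not specific to fibroblasts, and most kept cells held leukocyte transcripts. Nothing in the labels said how many mice stood behind a library.

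Adventitial fibroblasts lie around vessels and in the fascia and reticular dermis. They carry the peptidase inhibitor Pi16 and the dipeptidyl peptidase Dpp4, are found in nearly every connective tissue, and are often placed at the start of trajectories that lead to specialised and activated fibroblasts. They are known for microfibril proteins, complement factors and the surface antigen Cd34. Cthrc1, which the rule required to be 0, marks the activated collagen-producing fibroblasts of fibrotic tissue.

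The 8 libraries held 3355217 to 69765525 UMIs, and the median Pi16 cell had 1302 to 24622.5 UMIs and 0.978% to 2.82% mitochondrial UMIs by library. SARAWT PBS 1 and 2 and SARAWT bleomycin 1 and 2 had been made with Cell Ranger 4.0.0 and the other 4 with 3.1.0. Between 0.594% and 55.5% of a library's barcodes also occurred in another skin library. Of the 525 Pi16 cells, 71 shared a barcode, and 41 of these were the shallower of the copies, with a median of 1149 UMIs against 14937 in the deepest copy. These shallower copies made up 19 of 180 Pi16 cells in SARAWT PBS 1, 2 of 33 in SARAWT PBS 2, 8 of 11 in SARAWT bleomycin 1 and 12 of 23 in SARAWT bleomycin 2, and 35 of them had their deepest copy in SARAWT PBS 2. The main results are therefore given with all cells and with the shallower copies left out, which leaves 484 Pi16 cells. Doublet prediction marked 13 of the 525.

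Zfyve9, the targeted gene, was read first. The mouse entry stood in Pi16 cells at 34.9, 22.0 and 469 CPM (the CPM scale used throughout divides a gene's UMIs by all UMIs of the same cells in that library) in SARAWT PBS 1, 2 and 3, at 44.7, 32.6 and 9.73 CPM in SARAWT bleomycin 1, 2 and 3, at 338 CPM in SARATg PBS and at 282 CPM in SARATg bleomycin. The 4 libraries of Cell Ranger 4.0.0 also listed the human gene, at 706 CPM in SARAWT PBS 1, 98.8 in SARAWT PBS 2, 44.7 in SARAWT bleomycin 1 and 65.2 in SARAWT bleomycin 2. Thus the library labelled SARAWT PBS 3 stood with the SARATg libraries in the mouse entry, and the library labelled SARAWT PBS 1 was the highest in the human entry. A SARAWT library should lack the human gene, and all 4 libraries that listed it held some, so that by this entry none of them was free of it, and SARAWT bleomycin 3, whose list lacked it, could be read in the mouse entry alone. SARAWT PBS 1 and 3 stood furthest from their labels, so the share, the counts of genes called and some list counts under bleomycin are also given without them. Such fits keep SARAWT PBS 2 as the only PBS library, and their tests assume that it varies like the bleomycin libraries.

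Pi16 cells carried the adventitial program beyond the gene that chose them. With shallower copies left out, 5 libraries held at least 10 cells of each class (the 3 SARAWT PBS, SARAWT bleomycin 2 and SARATg PBS), and no test was run since the same cells defined the classes. Of 25 adventitial genes other than Pi16, 16 were higher in Pi16 cells than in other stroma in all 5 libraries and 0 lower in all 5, with a median log2 difference (on CPM plus 10) of 1.64. With all cells, 6 libraries qualified and the counts were 15 and 0 (median 1.74). Over all 8494 genes at a mean of 10 CPM or more, 562 were higher in all 5 and 1086 higher in none, with a median of -0.09. A gene higher in none was, in each library, lower than in the other class or level with it, as where both stood at 0. Against Cthrc1 cells 15 of the 25 were higher in all 5 libraries, with a median of 0.92. Of all genes 804 were higher in all 5 and 298 higher in none, with a median of 0.05.

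Clec3b, which encodes the plasminogen-binding protein tetranectin, stood in Pi16 cells at 1823, 3245 and 1026.5 CPM in SARAWT PBS 1, 2 and 3, at 483 in SARAWT bleomycin 2 and at 1814 in SARATg PBS. In other stroma of the same libraries it stood at 58.2, 325, 258, 89.1 and 880 CPM. Pi16 cells were thus higher in each library, by 2.67 on average on the log2 scale. The stem and progenitor antigen Cd34 averaged 1005 ± 230 CPM (SD, n = 5 libraries) in Pi16 cells against 275 ± 263 in other stroma, and Dpp4 148 ± 61.7 against 42.9 ± 23.3. Pdgfra, the platelet-derived growth factor receptor common to fibroblasts, averaged 323 ± 85.01 against 207 ± 85.2 CPM. Cd34, Dpp4 and Pdgfra were higher in all 5 libraries. Mfap5, a microfibril-associated glycoprotein, averaged 520 ± 320 against 135 ± 102 CPM and was higher in 4, the exception being SARAWT bleomycin 2.

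**Figure D1:**
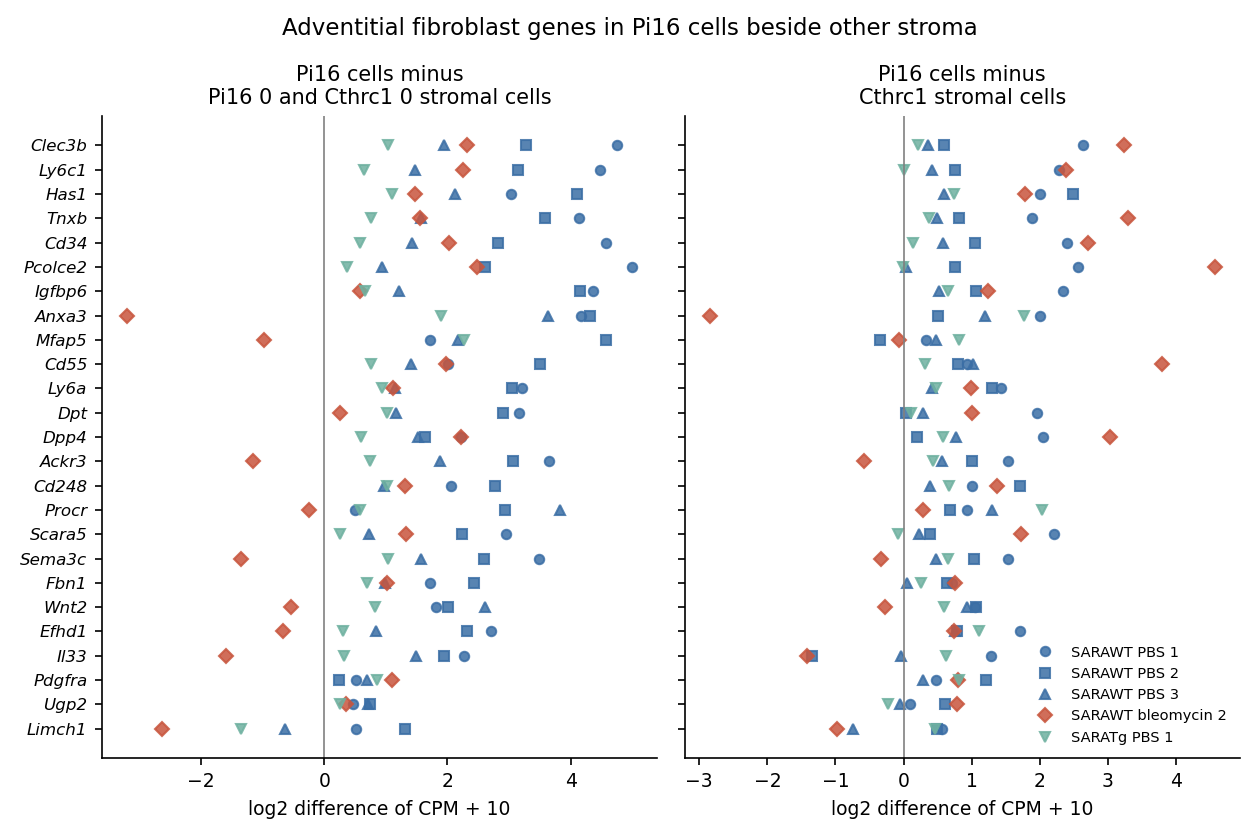
Differences of 25 adventitial fibroblast genes between Pi16 cells and other stroma (left) or Cthrc1 stromal cells (right), as log2 of CPM + 10, with 1 symbol per library for the 5 libraries with at least 10 cells of each class, shallower copies left out. Symbols right of the line at 0 mean a higher level in Pi16 cells; the 4 PBS libraries lie right of it for nearly all genes on the left, while SARAWT bleomycin 2 (red diamonds), with 11 Pi16 cells, lies left of it for Anxa3, Mfap5, Ackr3 and some others.

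The labelled markers were also read cell by cell. Thinned to 1000 UMIs, 69.5% of Pi16 cells held Clec3b, 59.1% Cd34, 28.2% Mfap5, 26.5% Pdgfra and 11.5% Dpp4, whereas other stroma held 15.2%, 17.3%, 7.45%, 15.5% and 3.21%. Thinning left out 5 of 484 Pi16 cells and 18 of 985 others, and unthinned the shares in Pi16 cells were 90.8%, 94.6%, 56.4%, 86.8% and 54.9%. Unthinned, 163 of 484 Pi16 cells had all of Dpp4, Clec3b, Mfap5 and Pdgfra and 6 had none, against 25 and 344 of 985 other stromal cells and 76 and 211 of 925 Cthrc1 cells. Of the 484 cells only 21 came from SARAWT bleomycin and 4 from SARATg bleomycin, so these shares describe PBS cells in the main. In SARAWT bleomycin 2 both Mfap5 and Anxa3 were lower in Pi16 cells than in other stroma.

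Cells were also read by their number of Pi16 UMIs. Of the 525, 97 had 1 Pi16 UMI, 52 had 2 and 376 had 3 or more, with a median of 8 and a highest count of 183. Outside the rule, 200 cells with Pi16 but without Ptprc or Pecam1 fell below the collagen minimum, while 37 members had 10 to 19 collagen UMIs. With shallower copies left out, Clec3b stood at 239 CPM in other stroma, at 784 CPM in the 75 cells with 1 Pi16 UMI, at 888 CPM in the 41 with 2 and at 2005 CPM in the 368 with 3 or more. Cd34 ran likewise from 232 through 603 and 770 to 1192 CPM. Mfap5, Dpp4 and Pdgfra were highest with 3 or more too, at 579, 159 and 345 CPM, but lower with 2 Pi16 UMIs (120, 42.7 and 189 CPM) than with 1 (209, 52.2 and 195 CPM). For these 5 genes cells with 1 Pi16 UMI thus lay between other stroma and the cells with 3 or more. Pi16 was also read in other sorted cells, in 1.02% of 490 Krt14 and Krt5 keratinocytes, 1.502% of 2797 Cd3 cells, 24.2% of 7746 Lyz2 cells (43.7 CPM) and 32.9% of 3203 H2-Aa cells (99.1 CPM), at a median depth of 14705.5 UMIs in Lyz2 cells and 12885 in H2-Aa cells against 13800.5 in Pi16 cells. Clec3b, at 90.7% in Pi16 cells, was in 0.994% of Lyz2 and 0.843% of H2-Aa cells, so Pi16 and Clec3b did not keep 1 ratio across these cells.

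Many complement and matrix genes stood higher than in other stroma. Of those named below, Fbn1, Has1 and Tnxb were already among the adventitial genes counted above. Over all 8494 genes, 562 were higher than in other stroma in all 5 libraries and 1086 higher in none. Complement genes stood higher in all 5 libraries for 7 of 13, with a median log2 difference of 1.31 over other stroma. C3, the central complement component, averaged 1122 ± 837 CPM against 117 ± 79.6 and was higher in 4 of 5 libraries, and Serping1, the C1 inhibitor, 1643 ± 587 against 563 ± 322 and higher in all 5. Of 19 elastic fibre and microfibril genes 8 were higher in all 5 (median 1.14), among them fibrillin 1 (Fbn1), at 1107 ± 328 against 429 ± 149 CPM, and fibulin 1 (Fbln1), at 327 ± 158 against 78.8 ± 35.2 CPM. Of 17 proteoglycan and hyaluronan genes 11 were higher (median 0.85), including the hyaluronan synthase Has1, at 486 ± 317 against 79.6 ± 32.0 CPM, the mimecan gene Ogn, at 790 ± 602 against 165 ± 104 CPM, and tenascin X (Tnxb), at 683 ± 202 against 162 ± 129 CPM. Against Cthrc1 cells 7 of 13 complement genes were higher in all 5 libraries (median 0.96), beside 804 of all 8494 genes, with 298 higher in none. Elastic fibre genes were higher there for 5 of 19, with 1 higher in none (0.48), and proteoglycan genes for 5 of 17 (0.44). Pan fibroblast genes had a median of 0.80 over other stroma. Of 16 genes of the Nrf2, stress and metallothionein list 5 were higher than in other stroma in all 5 libraries and 1 higher in none (median 0.24). Extracellular superoxide dismutase, Sod3, is on that list and stood at 229 ± 89.3 CPM against 29.8 ± 24.0 in other stroma and 64.5 ± 62.4 in Cthrc1 cells.

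Signalling receptors and contractile genes divided differently. Of 26 TGF-beta pathway genes 6 were higher in all 5 libraries and 2 higher in none (median -0.02). Of all 8494 genes these numbers were 562 and 1086. The ligand-binding receptor Tgfbr2 averaged 690 ± 288 against 247 ± 95.6 CPM and the co-receptor betaglycan, Tgfbr3, 340 ± 10.1 against 148 ± 45.9 CPM. Of 26 myofibroblast genes 1 was higher in all 5 and 6 higher in none (median -0.58), beside the same numbers of all genes. With all cells and 6 libraries they were 1 and 10 (median -0.57), beside 457 and 774 of all 8515 genes. Periostin, Postn, a matricellular protein of activated fibroblasts, averaged 535 ± 450 CPM against 1122 ± 704 in other stroma and 1194 ± 305 in Cthrc1 cells, and tropomyosin 1 (Tpm1) 179 ± 91.2 against 454 ± 268.

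Marker lists of other cells and of other stroma were read against the same class. Of all 8494 genes 562 were higher in all 5 libraries and 1086 higher in none, and a list near these shares did not stand apart. None of the 8 Schwann cell markers was higher than in other stroma in any of the 5 libraries. The Schwann factor Sox10 was at 0 in the Pi16 cells of all 5 libraries and averaged 36.4 ± 41.2 CPM in other stroma. Of the keratinocyte markers 4 of 10, of the mural 5 of 10, of the muscle 5 of 9, of the endothelial 4 of 9 and of the leukocyte markers 5 of 15 were higher in none of the 5 libraries. In each of these lists 0 were higher in all 5. Dermal papilla and sheath markers were higher in none for 7 of 9 and adipocyte markers for 5 of 6, with 0 higher in all 5. Melanocyte markers were higher in none for 2 of 7 and higher in all 5 for 1. In the other direction stood the Cyp2f2 and Mmp3 fibroblast genes, with 3 of 6 higher and 0 lower (median 1.15), and the tendon and fascia genes, with 2 of 6 higher and 0 lower (median 0.45). Other stroma as defined here thus held Schwann cell and dermal sheath transcripts, and their part in the differences above was not tested. Of the remaining lists, genes higher in all 5 libraries and genes higher in none numbered 5 and 0 of 10 for pan fibroblast genes, 7 and 1 of 20 for collagen processing enzymes, 1 and 3 of 17 for collagens, 8 and 1 of 27 for chemokines and cytokines, 5 and 0 of 20 for interferon response, 1 and 4 of 24 for the WNT pathway, 4 and 1 of 15 for the IGF axis, 1 and 5 of 19 for adipogenic genes, 5 and 4 of 20 for matrix proteases and inhibitors, 2 and 4 of 10 for acute phase genes, 2 and 1 of 25 for immediate early genes, 2 and 2 of 15 for imprinted growth genes, 1 and 3 of 17 for glycolysis and hypoxia, 0 and 2 of 20 for p53 targets, 1 and 4 of 15 for genes the study named and 0 and 1 of 21 for proliferation.

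Bleomycin libraries held fewer Pi16 cells among their stroma. Pi16 cells made up 37.0%, 30.6% and 16.6% of stromal cells in SARAWT PBS 1, 2 and 3 and 6.36%, 14.9% and 2.53% in SARAWT bleomycin 1, 2 and 3. Every bleomycin library thus lay below every PBS library. The means were 28.0 ± 10.4% and 7.94 ± 6.35% (SD, n = 3 each), a difference of -20.1 percentage points, with an exact two-sided permutation p of 0.1, the smallest that 3 against 3 libraries allow. A decrease in the share of the class cannot be told apart from an increase of other stroma or from fewer Pi16 transcripts per cell. In Cthrc1 cells, which need not hold Pi16, Pi16 stood at 365, 1498 and 248 CPM in SARAWT PBS 1, 2 and 3, shallower copies left out. In SARAWT bleomycin 1, 2 and 3 it stood there at 7.17, 9.10 and 4.59 CPM. Pi16 was thus lower under bleomycin outside the class too, and the part of this in the share was not tested. The share of Ptprc-positive cells with a Pi16 UMI, which are outside the class, was 26.7%, 20.7% and 13.21% under PBS and 13.4%, 15.8% and 11.7% under bleomycin, and 36.0% and 20.04% in SARATg PBS and SARATg bleomycin. SARATg PBS and SARAWT PBS 1 and 2 were thus the highest and SARAWT PBS 3 lay among the bleomycin libraries, and the part of such reads in the stromal share was not tested.

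Leaving out shallower copies widened the gap. The shares became 38.4%, 52.5% and 16.7% under PBS and 2.24%, 14.3% and 2.55% under bleomycin, a difference of -29.5 points (exact permutation p = 0.1), with 21 Pi16 cells left in all 3 bleomycin libraries against 242 under PBS. Among all kept cells the share was 4.42%, 4.23% and 1.08% under PBS and 0.510%, 1.06% and 0.107% under bleomycin, so that the highest bleomycin library, SARAWT bleomycin 2, came just under the lowest PBS library, SARAWT PBS 3 (difference -2.68 points, exact permutation p = 0.1). Within Cell Ranger 4.0.0 the stromal shares were 37.0% and 30.6% against 6.36% and 14.9%, and within 3.1.0 they were 16.6% against 2.53%. Without the libraries labelled SARAWT PBS 1 and 3 the difference was -22.6 points with 1 PBS library left, which allows no test, and -46.2 points with shallower copies left out too. Counting Pi16 cells whatever their Cthrc1 gave -24.6 points, and thinning every stromal cell to 1000 UMIs gave -18.8 points with an exact permutation p of 0.2.

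**Figure D2:**
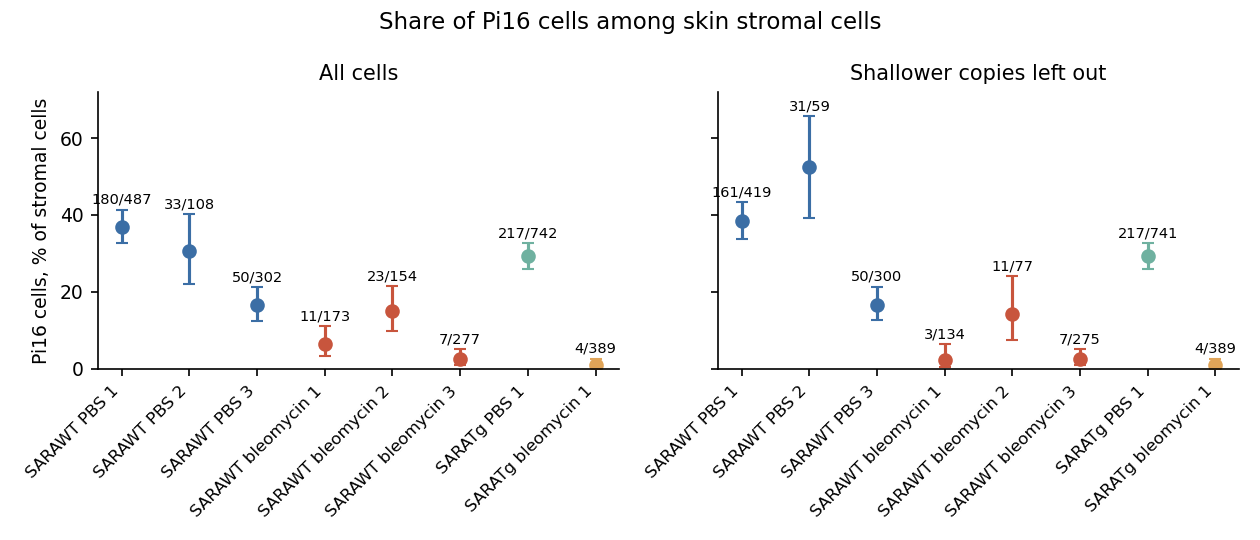
Share of Pi16 cells among stromal cells (%), with 1 point per skin library, exact 95% binomial intervals and the number of Pi16 cells over stromal cells above each point, for all cells (left) and with shallower copies of shared barcodes left out (right). The 3 SARAWT bleomycin libraries (red) lie below the 3 SARAWT PBS libraries (blue) in both panels, and SARATg bleomycin (yellow) lies below SARATg PBS (green).

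The pair of SARATg libraries stood in the same order. Pi16 cells were 217 of 742 stromal cells in SARATg PBS, 29.2% (exact 95% interval 26.0% to 32.7%), and 4 of 389 in SARATg bleomycin, 1.03% (0.281% to 2.61%). Of these 4 cells 2 were predicted doublets and 3 had a single Pi16 UMI. Without predicted doublets the share in SARATg bleomycin was 0.556%, and with at least 2 Pi16 UMIs required it was 0.257%. The intervals cover counting error only, and with 1 library each there was no test.

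The Pi16 cells of bleomycin libraries differed from those of PBS libraries in few genes by the test. UMIs were summed over the Pi16 cells of each library and fitted with edgeR's quasi-likelihood test, with Benjamini-Hochberg adjustment over all genes tested and a threshold of 0.05. As planned, libraries with at least 10 Pi16 cells entered, which left SARAWT bleomycin 1 and 2, where 20 of 34 cells were shallower copies. That fit called 1 of 5549 genes, Ptx3, which was lower (0.018% of genes called, 460 at an unadjusted p under 0.05), and DESeq2 called 34. With shallower copies left out and all 6 SARAWT libraries, a choice made after seeing the data, 3 of 4053 genes were called, all lower (0.074%, 365 at an unadjusted p under 0.05), and DESeq2 called 54. The 3 bleomycin libraries then held 3, 11 and 7 Pi16 cells, in which 1 UMI was worth 17.3, 5.90 and 9.73 CPM, against 0.436, 2.76 and 1.33 CPM under PBS. Values below are from that fit unless all cells are named.

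Ptx3, the long pentraxin 3, a secreted pattern recognition protein that binds complement components, fell. It stood at 387, 434 and 355 CPM in SARAWT PBS 1, 2 and 3 and at 0, 5.90 and 0 CPM in SARAWT bleomycin 1, 2 and 3, without overlap. Summed over libraries it had 1311 UMIs under PBS and 1 under bleomycin, a ratio of 127 with a counting interval of 22.8 to 5021. Such intervals, here and below, treat UMIs as independent and leave out the spread between cells. Over all libraries, 113 of 461 Pi16 cells without the dermal sheath gene Coch held Ptx3, and the bleomycin libraries had only 3, 11 and 7 Pi16 cells. The fitted log2 change was -6.93 ± 0.59 (SE, adjusted p = 0.00309), and -5.60 ± 0.57 with all cells (adjusted p = 0.0321). Ptx3 was called in 25 of 34 fits and lower in all 34, with adjusted p from 3.7e-16 to 0.160. With all cells, leaving out any of the 5 libraries in turn ended the call, though without SARAWT bleomycin 1 or 2 a single bleomycin library was left, assumed to vary like the PBS libraries. The drop stood in both Cell Ranger versions, 387 and 434 against 0 and 5.90 CPM in 4.0.0 and 355 against 0 CPM in 3.1.0. Ptx3 was also lower in SARATg PBS, without bleomycin, than in each SARAWT PBS library, as given below.

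Col14a1 and Cxcl14 fell in the fit without shallower copies. Col14a1, a fibril-associated collagen of the reticular dermis, stood at 384, 589 and 215 CPM under PBS and at 0, 5.90 and 9.73 CPM under bleomycin, a log2 change of -5.98 ± 0.70 (adjusted p = 0.0240). It had 1256 UMIs against 2, a ratio of 60.8 (16.8 to 503). Cxcl14, a chemokine made by fibroblasts and epithelia, stood at 141, 171 and 231 CPM under PBS and at 17.3, 5.90 and 0 CPM under bleomycin, a log2 change of -4.83 ± 0.63 (adjusted p = 0.0378). The groups did not overlap for either gene. With all cells neither passed (adjusted p = 0.22 for Col14a1 and 0.193 for Cxcl14), and over the 34 fits they were called in 14 and 12 and lower in all.

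Genes next in order of p did not pass. Mfap5 stood at 789, 829 and 613 CPM under PBS and at 17.3, 118 and 38.9 CPM under bleomycin (log2 change -3.44 ± 0.52, adjusted p = 0.0578). Igfbp4, which binds insulin-like growth factors, stood at 1027, 628 and 825 CPM against 34.6, 159 and 87.6 CPM (-2.98 ± 0.47, adjusted p = 0.0578). Both were apart in every SARAWT library, but Igfbp4 in SARATg PBS, without bleomycin and given below, lay within the range of the bleomycin libraries. On the higher side, the apolipoprotein gene Apod stood at 625, 945 and 1609 CPM under PBS and at 4617, 4434 and 7083 CPM under bleomycin (2.32 ± 0.38), the argininosuccinate synthase Ass1 at 10.5, 2.76 and 14.6 against 156, 106 and 48.6 CPM (3.23 ± 0.53), and Phgdh, the entry enzyme of serine synthesis, at 17.01, 11.1 and 19.9 against 86.5, 64.9 and 117 CPM (2.36 ± 0.40), all with an adjusted p of 0.0578. Pdgfa and Mif followed at 3.03 ± 0.61 and 1.89 ± 0.40 (adjusted p = 0.114 and 0.115). With all cells the 5 higher genes of smallest p were Ass1, BC028528, Pdgfa, Apod and Fbln5 (adjusted p = 0.193 for Ass1 and 0.22 for the other 4), and Basp1 and C4b joined Ptx3, Cxcl14 and Col14a1 on the lower side (0.193 and 0.22).

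**Figure D3:**
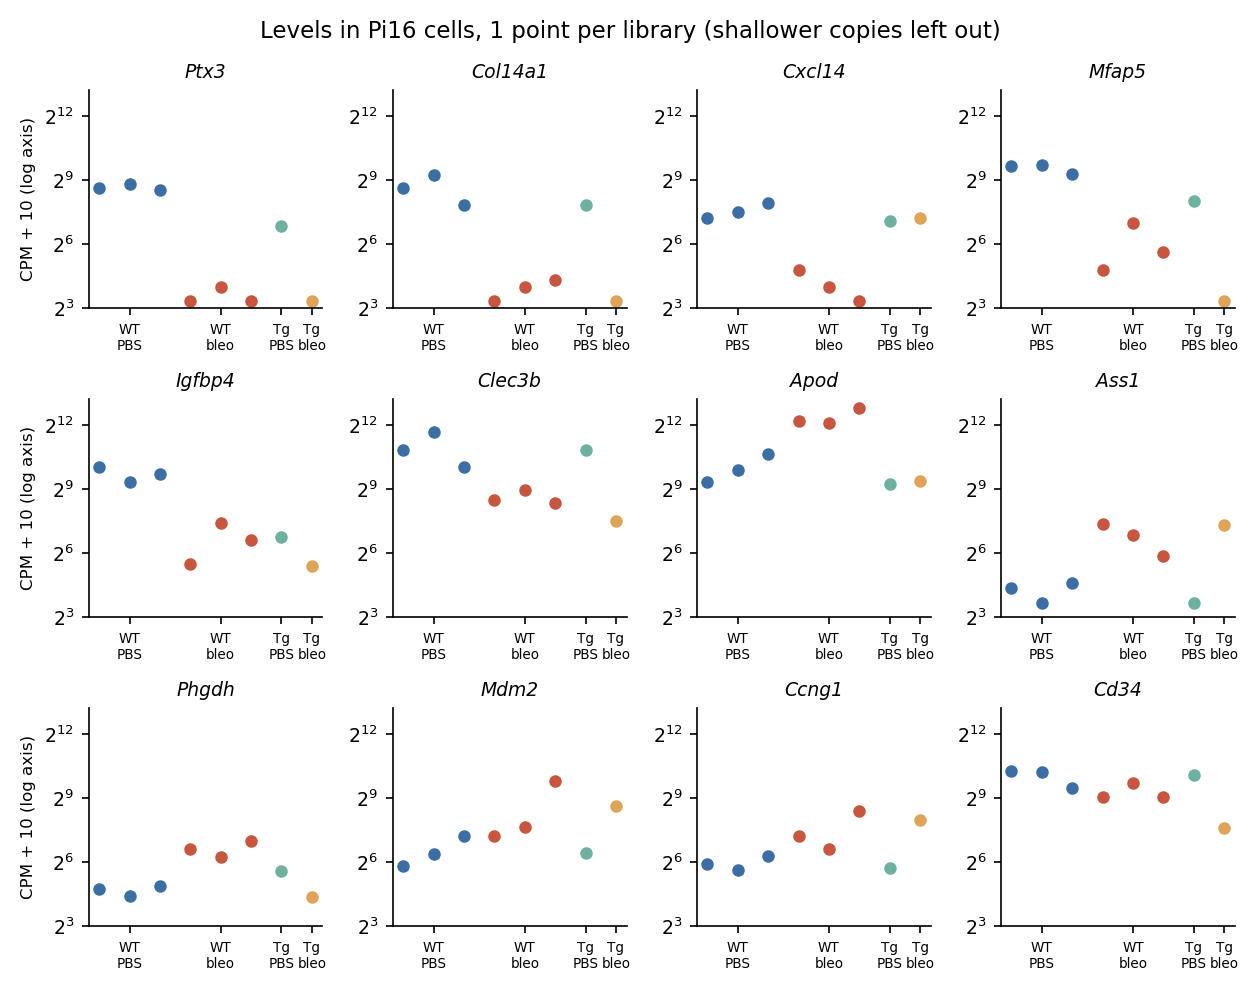
CPM + 10 on a log axis for 12 genes in the Pi16 cells of each skin library (1 point per library, shallower copies left out), by group: SARAWT PBS (blue), SARAWT bleomycin (red), SARATg PBS (green) and SARATg bleomycin (yellow, 4 cells). Ptx3, Col14a1 and Cxcl14, the genes that passed the test, lie at 0 to 17.3 CPM in the SARAWT bleomycin libraries, and Apod, Ass1 and Phgdh lie above the SARAWT PBS libraries.

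Some genes were at 0 in all 21 SARAWT bleomycin Pi16 cells of this fit, which together held 330212 UMIs, so that a count of 0 allows up to 9.09 CPM. Those named here were chosen after their values were seen, as well counted under PBS and at 0 under bleomycin. Their lower level was thus fixed by that choice and is given as a description only. By counting error alone, among the genes of the lists and those named by the rule, Smpd3 was at least 30.2-fold lower, Sfrp4 at least 28.4-fold, Plac8 at least 19.4-fold, Hmcn2 at least 17.5-fold and Akr1c18 at least 10.7-fold. These bounds and those below pool UMIs over libraries and leave out the spread between cells and libraries. SARAWT PBS 1 gave 2292590 of the 3408344 PBS UMIs. Over all libraries, 82 of 461 Pi16 cells without the dermal sheath gene Coch held Smpd3. Cxcl9 was at 0 too, but 414 of its UMIs under PBS lay in SARAWT PBS 1 and 2 and 1 in SARAWT PBS 2 and 3, so no bound is given. The WNT antagonist Sfrp4 stood at 249.9, 511 and 160.5 CPM in SARAWT PBS 1, 2 and 3. Sfrp2, of the same family, was at 75.5, 216 and 75.6 CPM and at least 9.95-fold lower. The ligands Wnt2 and Wnt11 were at least 3.84-fold and 3.88-fold lower, and the B cell chemokine Cxcl13 at least 8.49-fold. None of these genes was called, and Wnt2, Wnt11, Cxcl13, Cxcl9 and Akr1c18 did not pass the filter on low counts (adjusted p = 0.174 for Smpd3, 0.0578 for Sfrp4 and Plac8, 0.0681 for Hmcn2 and 0.136 for Sfrp2). The WNT list as a whole had 5 genes fitted higher and 8 lower, with a median of -0.03.

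Gene lists were read as counts beside all genes tested. In the fit without shallower copies the median log2 change of all 4053 genes was 0.01, every bleomycin library was below every PBS library for 9.01% of genes and above for 6.24%. Of the 25 adventitial genes 22 were tested and 0 called, 21 were fitted lower and 1, Ugp2, higher, with a median of -1.12, and 10 of 22 had every bleomycin library below every PBS library. Clec3b stood at 1823, 3245 and 1026.5 against 346, 483 and 311 CPM (-2.41 ± 0.45, adjusted p = 0.0756), Tnxb at 795, 945 and 655 against 208, 407 and 97.3 CPM (-1.69 ± 0.47, adjusted p = 0.251), and Cd34 at 1222, 1186 and 700 against 519, 825 and 516 CPM (-0.72 ± 0.34, adjusted p = 0.583). Thus the PBS and bleomycin values of Clec3b and Tnxb lay apart and those of Cd34 overlapped. With all cells 24 of 25 were fitted lower and 1 higher (median -0.89, 0 called). Without shallower copies and the libraries labelled SARAWT PBS 1 and 3, which leaves 1 PBS library, all 21 tested were fitted lower (median -1.41, 1 called). Pi16 itself, which the rule only required to be present, was at 2156, 1833 and 951 CPM under PBS and at 3406, 1008 and 195 CPM under bleomycin. With all cells, members with 1 Pi16 UMI were 30 of 180, 3 of 33 and 14 of 50 under PBS. Under bleomycin they were 5 of 11, 8 of 23 and 3 of 7. The part of such cells in the lower list was not tested.

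Inflammatory lists leaned lower. Of 27 chemokine and cytokine genes 19 were tested, 1 (Cxcl14) was called, 17 were fitted lower and 2 higher, with a median of -1.41, and 6 of 19 had every bleomycin library below every PBS library. Ccl2, a monocyte attractant, stood at 845, 1255 and 1320 CPM against 259, 372 and 292 CPM (adjusted p = 0.0578), and Cxcl10, which attracts T cells, at 151, 323 and 114 against 34.6, 11.8 and 9.73 CPM (adjusted p = 0.0756). Il6 went the other way in 1 library, at 3216 CPM in SARAWT bleomycin 1 with its 3 Pi16 cells against 23.6 and 29.2 CPM in SARAWT bleomycin 2 and 3 and 170 to 448 CPM under PBS. Of 8 complement genes tested 0 were called, 7 were fitted lower and 1 higher (median -0.87), with 3 of 8 below in every library, and C3 stood at 1710, 2187 and 974.8 against 916, 82.5 and 739 CPM. With all cells, genes fitted lower and higher numbered 18 and 3 for chemokines and cytokines (median -0.89) and 10 and 1 for complement (-0.74), with 0 called. Without SARAWT PBS 1 and 3 and shallower copies they numbered 18 and 1 (-1.71) and 8 and 1 (-1.52).

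Lists of the p53 response, interferon and glycolysis leaned higher. Of 13 p53 targets tested 12 were fitted higher, 1 lower and 0 called (median 1.07), and 6 of 13 had every bleomycin library above every PBS library. Mdm2, the ubiquitin ligase of p53, stood at 46.7, 71.9 and 139 CPM under PBS and at 138, 189 and 885 CPM under bleomycin, so that SARAWT bleomycin 1 met SARAWT PBS 3 and SARAWT bleomycin 3 carried most of the distance. Ccng1, cyclin G1, stood at 50.2, 38.7 and 69.0 against 138, 88.4 and 331 CPM without overlap (1.77 ± 0.48, adjusted p = 0.236). Of 14 interferon response genes 12 were fitted higher, 2 lower and 0 called (median 0.70), with 4 of 14 above in every library, and of 11 glycolysis and hypoxia genes 10 higher, 1 lower and 0 called (median 0.49), with 3 of 11 above. With all cells, genes fitted higher and lower numbered 12 and 2 for p53 targets (median 0.66), 17 and 2 for interferon response (0.72) and 10 and 3 for glycolysis and hypoxia (0.45), with 0 called. Without SARAWT PBS 1 and 3 and shallower copies they numbered 12 and 0 (1.86), 11 and 3 (0.45) and 11 and 2 (0.89). Lactate dehydrogenase A (Ldha) stood at 170, 210 and 145 against 1089, 242 and 331 CPM (1.55 ± 0.50, adjusted p = 0.346).

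The other lists are given by their counts. Fitted higher and lower genes numbered 11 and 10 for myofibroblast genes (median 0.10), 8 and 8 for collagens (-0.08, Col14a1 called), 9 and 7 for collagen processing enzymes (0.14), 8 and 10 for elastic fibre genes (-0.17), 5 and 8 for proteoglycans (-0.11), 5 and 10 for matrix proteases and inhibitors (-0.34), 7 and 18 for immediate early genes (-0.24), 8 and 8 for the TGF-beta pathway (0.00), 5 and 8 for the WNT pathway (-0.03), 5 and 6 for the IGF axis (-0.22), 3 and 5 for imprinted growth genes (-0.52), 4 and 3 for adipogenic genes (0.32), 4 and 7 for Nrf2 and metallothionein genes (-0.01), 5 and 5 for pan fibroblast genes (-0.11), 1 and 9 for genes the study named (-0.44), and 0 and 3 for acute phase genes (-0.06, but 2 and 1 with all cells, median 0.04). Every bleomycin library lay below every PBS library, beside 9.01% of all genes, for 3 of 8 imprinted growth genes, 3 of 11 of the IGF axis, 4 of 15 matrix proteases and inhibitors, 3 of 13 of the WNT pathway, 3 of 16 of the TGF-beta pathway, 4 of 25 immediate early genes, 2 of 10 pan fibroblast genes, 2 of 13 proteoglycans, 2 of 16 collagen processing enzymes, 2 of 18 elastic fibre genes, 2 of 21 myofibroblast genes, 1 of 16 collagens, 1 of 11 Nrf2 and metallothionein genes and 1 of 10 genes the study named, and for 0 of 7 adipogenic and 0 of 3 acute phase genes. Every bleomycin library lay above, beside 6.24% of all genes, for 3 of 16 collagen processing enzymes, 2 of 16 collagens, 1 of 13 proteoglycans, 1 of 15 matrix proteases and inhibitors and 1 of 16 of the TGF-beta pathway, and for 0 genes of the other lists just given. Without SARAWT PBS 1 and 3 and shallower copies, the medians of collagens (0.14), the WNT pathway (0.38) and adipogenic genes (-0.0018) changed sign, while those of the other lists just given did not. Within them Col14a1 alone passed. Type I collagen, which the rule used, was at 16293, 18431 and 22102 CPM of Col1a1 under PBS and 27580, 38956 and 20335 CPM under bleomycin. Of 21 proliferation genes 2 were tested and both were fitted lower (median -0.63). Of the marker lists of other cells, the 6 Cyp2f2 and Mmp3 fibroblast genes had 3 fitted higher and 1 lower, dermal papilla and sheath 2 higher, tendon and fascia 1 higher, leukocyte 1 higher and 1 lower and melanocyte 1 lower, with 0 called, while 0 endothelial, keratinocyte, mural, Schwann, muscle and adipocyte markers were tested. Of the TGF-beta receptors, Tgfbr2 stood at 1057, 851 and 682 against 588, 295 and 302 CPM (-1.20 ± 0.32, adjusted p = 0.236) and Tgfbr3 at 354, 343 and 338 against 605, 336 and 185 CPM.

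Transcripts of other cells differed between the bleomycin libraries. Summed over 15 leukocyte markers they came to 138 to 264 CPM in the SARAWT PBS Pi16 cells and to 208, 177 and 1109 CPM in SARAWT bleomycin 1, 2 and 3. Summed mural markers came to 342, 130 and 62.3 CPM under PBS and 726, 59.0 and 389 CPM under bleomycin, and Schwann markers to 46.7, 47.0 and 21.2 against 34.6, 35.4 and 253 CPM. The 9 markers of dermal papilla and sheath came to 4959 CPM in SARAWT bleomycin 2 against 5.53 to 536 CPM in the other SARAWT libraries. Tendon and fascia markers came to 1545 CPM in SARAWT bleomycin 2 against 86.5 to 144 CPM in the other SARAWT libraries. Endothelial markers summed to 0 CPM in all 3 bleomycin libraries against 13.3 to 91.2 CPM under PBS, and keratinocyte markers to 17.3 to 70.8 CPM against 60.8 to 109 CPM under PBS. The part of these transcripts in the changes above was not tested.

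A few Pi16 cells, 10 of 484, held 3 or more UMIs of Coch, a dermal sheath gene, a split made after the values were seen. They were 2 of 11 in SARAWT bleomycin 2, 1 of 4 in SARATg bleomycin, 3 of 161 in SARAWT PBS 1, 2 of 50 in SARAWT PBS 3 and 2 of 217 in SARATg PBS. Compared with the 461 Pi16 cells without Coch they had 1675 against 5.50 CPM of the tendon proteoglycan Fmod, 1209 against 25.6 CPM of Crabp1 and 264 against 1792 CPM of Clec3b, and 0 UMIs of C4b, Ptx3 and Anxa3, whereas Pi16 stood at 1452 against 1457 CPM. Leaving them out gave 5 called genes in place of 3 and a stromal share difference of -29.9 points.

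The adventitial genes were lower under bleomycin across the stroma as a whole. Over all stromal cells, edgeR called 1370 of 11657 genes (11.8%), 648 higher (5.56%) and 722 lower (6.19%), and 1386 of 11600 with shallower copies left out (11.9%), 654 higher (5.64%) and 732 lower (6.31%). Without the library SARAWT bleomycin 1 these counts came to 0 and 35, and without the libraries labelled SARAWT PBS 1 and 3 and shallower copies to 144. Of the 25 adventitial genes 17 fell and 0 rose, beside 6.31% and 5.64% of all genes, with a median log2 change of -2.18 against 0.00 for all genes. With all cells 17 fell and 0 rose too, and without SARAWT PBS 1 and 3 and shallower copies 7 fell. In the same fit Schwann markers rose for 4 of 8 (Sox10, Cdh19, S100b and Erbb3; median 1.67), muscle markers for 4 of 9 (Myod1, Myf5, Myog and Des; median 2.57), and 2 of 6 Cyp2f2 and Mmp3 fibroblast genes fell (Ptgs2 and Inmt; median -2.04). Immediate early and dissociation genes fell for 11 of 25, and all 25 were fitted lower (median -1.03). The part of these cells and of dissociation in the fall of the adventitial genes was not tested. With the replicate number as a block, 2001 genes were called with all cells and 2008 with shallower copies left out. Clec3b stood at 714, 2324 and 607 CPM under PBS and at 16.7, 102 and 43.7 CPM under bleomycin (-4.54 ± 0.79, adjusted p = 0.0161), and Dpt, dermatopontin, at 1081, 2095 and 1027 against 211, 286 and 248 CPM (-2.52 ± 0.31, adjusted p = 0.0103). Cd34 (488, 823 and 414 against 75.6, 215 and 98.0 CPM) and Dpp4 (80.9, 190 and 75.8 against 1.40, 13.7 and 13.7 CPM) fell likewise, by 2.18 and 3.604 on the log2 scale. Each of these 4 genes had every bleomycin library below every PBS library, and each lost its call without SARAWT bleomycin 1 (adjusted p 0.0542 to 0.0966 over both sets of cells). Clec3b and Cd34 also did without SARAWT bleomycin 3 (0.0572 to 0.0720), Dpp4 did so only with shallower copies left out (0.0541), and Cd34 did without SARAWT PBS 2 (0.0669 and 0.0622).

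In other stroma, where Pi16 and Cthrc1 were both at 0, few genes of the list passed. There 14 of 9459 genes were called with all cells (0.148%, with 0.0846% higher and 0.0634% lower, SARAWT bleomycin 3 not entered) and 265 of 9515 with shallower copies left out and 6 libraries (2.79%, with 1.12% higher and 1.66% lower). Of 24 adventitial genes tested in the latter, Anxa3 rose, Pdgfra fell and the other 22 did not pass, with a median log2 change of -0.46 beside -0.02 for all genes. With all cells 1 of 23 passed (Anxa3, median -0.21), and without SARAWT PBS 1 and 3 and shallower copies 0 of 23 did, with 14 fitted higher and 9 lower (median 0.17). In the fits of Pi16 cells, other stroma and all stroma the list's medians were -1.12, -0.46 and -2.18. These fits share their libraries, and the whole stroma also contains Pi16 cells, whose share of stroma was lower under bleomycin. Cells without a Pi16 UMI count as other stroma by the rule, and their part in these medians was not tested.

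**Figure D4:**
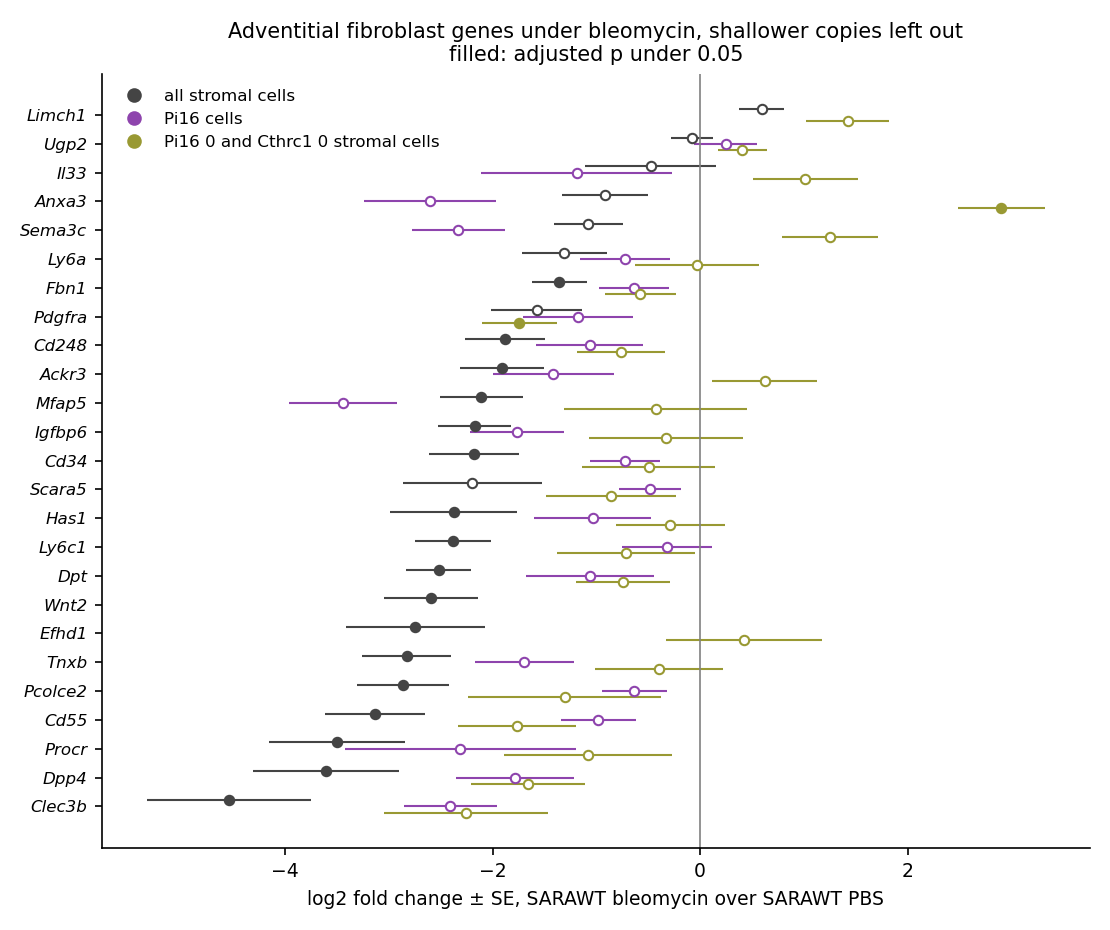
Log2 fold change ± SE of the adventitial fibroblast genes, SARAWT bleomycin over SARAWT PBS (edgeR, 3 against 3 libraries, shallower copies left out), in all stromal cells (black), Pi16 cells (purple) and other stroma (olive), with filled points for an adjusted p under 0.05. In all stromal cells 17 of 25 genes are filled and left of 0, and no point of Pi16 cells is filled.

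Whether Pi16 cells and other stroma changed by different amounts was tested as the interaction of class and treatment. The classes were split by Pi16, which over all stroma stood at 824, 1315 and 262 CPM under PBS, shallower copies left out. Under bleomycin it stood there at 59.9, 112 and 5.89 CPM. A cell of the class without a Pi16 UMI counts as other stroma by the rule, and the part of such cells in the class difference was not tested. With all cells 32 of 8779 genes were called (0.365%, 16 or 0.182% in each direction), and with shallower copies left out and 6 libraries 36 of 9012 (0.399%), 8 higher (0.0888%) and 28 lower (0.311%). The makeup of other stroma moved as well, where 1.12% of all genes were called higher and 1.66% lower in the fit of 6 libraries. With shallower copies left out, dermal papilla and sheath markers fell there for 3 of 6 (Corin, Rspo3 and Hhip; median -2.59) and tendon and fascia markers for 1 of 2 (Tnmd), while Schwann markers rose for 1 of 8 (Sox10; median 1.25) and muscle markers for 2 of 7 (Myf5 and Ckm; median 4.07), and immediate early and dissociation genes fell there for 7 of 25, Nr4a1 among them, with all 25 fitted lower (median -1.17) against 18 of 25 in Pi16 cells (median -0.24, 0 called). The part of these transcripts in the class difference was not tested. With the replicate number as a block within each class 179 genes were called with all cells and 258 with shallower copies left out. Leaving out 1 library at a time gave 2 to 158 genes, with 2 without SARAWT bleomycin 1 in either set of cells. In all, 10 genes were called in both sets, of which 6 had at least 3 UMIs in each group of Pi16 cells. Those 6 are described here, from the fit without shallower copies.

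Anxa3, annexin A3, a gene of the adventitial list, had opposite directions in the classes. In Pi16 cells it stood at 342, 442 and 273 CPM under PBS and at 104, 5.90 and 97.3 CPM under bleomycin, and in other stroma at 9.59, 12.7 and 12.8 CPM under PBS and at 78.5, 136 and 51.8 CPM under bleomycin. The groups did not overlap in either class. The difference between the changes was -5.53 on the log2 scale (adjusted p = 0.0126). Plat, the tissue plasminogen activator, stood at 227, 290 and 172 against 121, 17.7 and 87.6 CPM in Pi16 cells and at 59.4, 31.8 and 59.5 against 148, 180 and 113 CPM in other stroma (difference -3.38, adjusted p = 0.0345).

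For Col8a1 and Timp1 the class difference came with higher levels in other stroma. Col8a1, a short-chain collagen, stood at 57.6, 71.9 and 58.4 against 69.2, 41.3 and 175 CPM in Pi16 cells, where the groups overlapped, and at 18.1, 44.5 and 45.2 against 464, 659 and 369 CPM in other stroma, where it rose (difference -3.58, adjusted p = 0.0331). Timp1, an inhibitor of matrix metalloproteinases, stood at 92.5, 85.7 and 341 against 311, 23.6 and 48.6 CPM in Pi16 cells and at 42.0, 57.3 and 198 against 521, 216 and 269 CPM in other stroma (difference -2.98, adjusted p = 0.0318). Pi16 cells under bleomycin thus stood below other stroma for Col8a1 in each library and for Timp1 likewise.

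Trps1 and Srpx showed the reverse. Trps1, a zinc finger repressor of the hair follicle dermis, stood at 97.7, 41.5 and 39.8 against 138, 165 and 38.9 CPM in Pi16 cells and at 381, 299 and 129 against 40.3, 53.4 and 58.3 CPM in other stroma, where it fell (difference 2.99, adjusted p = 0.0366). Srpx, a sushi-repeat protein, stood at 182, 183 and 198 against 294, 389 and 117 CPM in Pi16 cells and at 237, 261 and 150 against 23.6, 100.2 and 30.05 CPM in other stroma (difference 2.42, adjusted p = 0.0347). In both genes the PBS and bleomycin values of Pi16 cells overlapped and those of other stroma did not. With shallower copies left out all 6 lost their call without SARAWT PBS 1 (adjusted p 0.0740 to 0.124), and each also lost it without SARAWT bleomycin 1 or 2 in at least 1 set of cells, with no change of sign in any fit. Without the libraries labelled SARAWT PBS 1 and 3, with 1 PBS library left, none of the 6 passed (adjusted p 0.0829 to 0.370). Without the cells rich in Coch, Trps1 did not pass either (difference 2.23, adjusted p = 0.138), while the other 5 did.

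**Figure D5:**
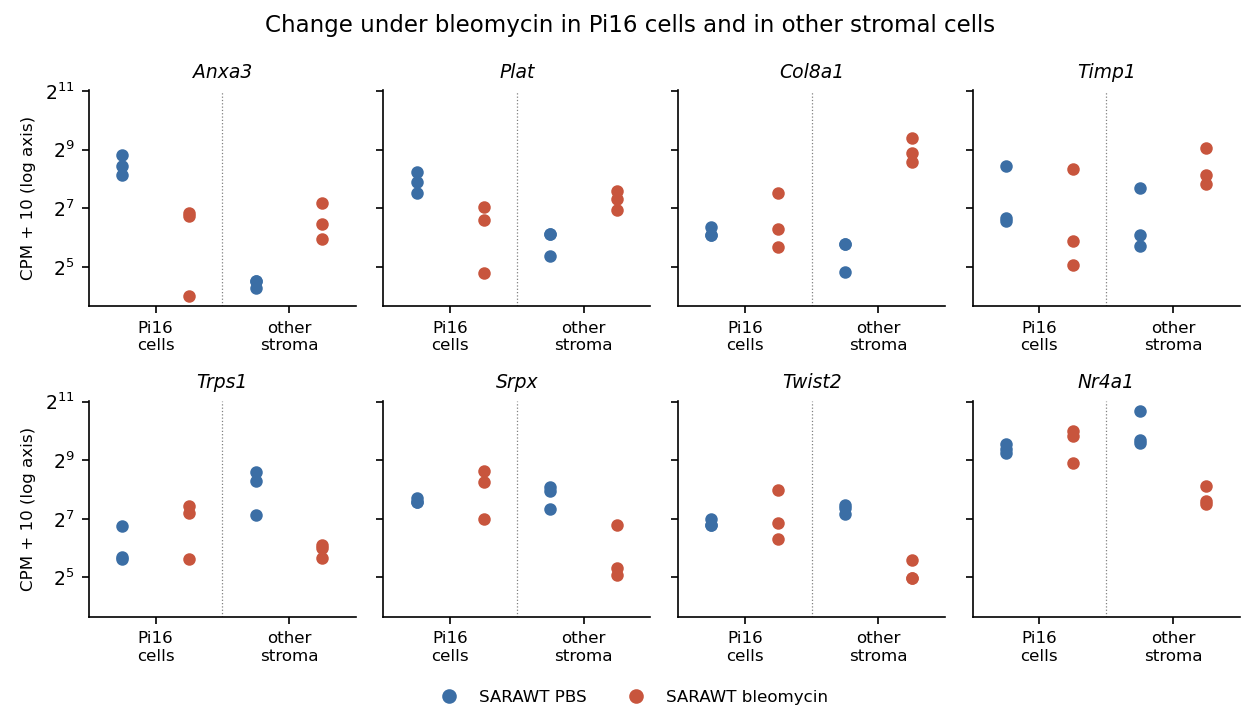
CPM + 10 on a log axis in Pi16 cells (left of each dotted line) and other stroma (right) of the 3 SARAWT PBS (blue) and 3 SARAWT bleomycin (red) libraries, shallower copies left out, for the 6 genes above and for Twist2 and Nr4a1. Anxa3 is lower under bleomycin in Pi16 cells and higher in other stroma, while Trps1, Srpx, Twist2 and Nr4a1 are lower under bleomycin in other stroma and overlap in Pi16 cells.

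Twist2, a transcription factor of dermal fibroblasts, and Nr4a1, an orphan nuclear receptor of the immediate early response, passed without shallower copies and not with all cells (adjusted p = 0.0520 and 0.0693). Twist2 stood at 99.5, 99.5 and 117 against 69.2, 242 and 107 CPM in Pi16 cells and at 132, 165 and 156 against 21.6, 37.9 and 21.7 CPM in other stroma. Nr4a1 stood at 660, 603 and 748 against 467, 1020.1 and 895 CPM in Pi16 cells and at 762, 1636 and 811 against 185, 265 and 172 CPM in other stroma. For both, the groups overlapped in Pi16 cells and not in other stroma, and both were chosen after their values were seen.

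The Pi16 cells of SARATg PBS were read beside the SARAWT PBS libraries without a test. Of 8046 genes at a mean of 10 CPM or more, 1.24% lay above the highest SARAWT PBS library by over 1.5-fold and 2.8% below the lowest, on CPM plus 10. Of 25 myofibroblast genes 11 lay below and 1 above, and of 25 adventitial genes 7 lay below and 0 above. Beside SARAWT PBS 2 alone, which held less human ZFYVE9 than SARAWT PBS 1 but was not free of it, 9.04% of genes lay above and 17.6% below, with 2 and 13 of the myofibroblast and 0 and 19 of the adventitial genes. Igfbp4 was at 98.9 CPM (exact 95% Poisson interval 88.4 to 110.3) against 628 to 1027 in SARAWT PBS, Postn at 182 CPM against 499 to 1081, and Ptx3 at 106 CPM (95.1 to 118) against 355 to 434. SARATg PBS was below each SARAWT PBS library in all 3 genes, SARAWT PBS 2 included, at 628, 1081 and 434 CPM.

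Of 17 collagens 1 lay above and 3 below, and 4 and 4 beside SARAWT PBS 2 alone. Col3a1 was at 26422 CPM in SARATg PBS against 9905 to 12391 in SARAWT PBS, and Col1a1 and Col1a2, which the rule used, at 60760 and 54115 CPM against 16293 to 22102 and 17122 to 20679. Of 19 collagen processing enzymes 4 lay above and 1 below, and 7 and 3 beside SARAWT PBS 2 alone, with lysyl oxidase, Lox, at 628 CPM (601 to 656) against 210 to 349. Col1a1 was likewise 76019 CPM in the other stroma of SARATg PBS against 9470 to 19141 in that of SARAWT PBS. Its height was thus shared with other stroma of this library, which the rule also chose by Col1a1 and Col1a2. Levels of Col3a1 and Lox in other stroma are not given here. With 1 SARATg PBS library, genotype and library cannot be told apart.

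In SARATg bleomycin the 4 Pi16 cells, 2 of them predicted doublets, held 92166 UMIs. Ptx3, Col14a1 and Mfap5 were at 0 CPM there, Clec3b was at 174 CPM against 1814 in SARATg PBS, and Ass1 was at 152 CPM against 2.46. Cxcl14 was at 141 CPM against 126 in SARATg PBS and Apod at 651 against 589, so these genes lay close together in the pair of SARATg libraries.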

How the data were processed

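The authors deposited UMI counts per gene and barcode of 10x 3′ libraries, aligned to mm10. The submitters' notes name Cell Ranger 3.0.2 and Seurat 2.3.4, while the file headers give 4.0.0 for 4 skin libraries and 3.1.0 for 4. Libraries were joined on 30406 Ensembl identifiers present in both gene lists, and the files held 0 columns of other series. The libraries of this series that were not from skin were not used. Members and gene lists were chosen with earlier results of these data known. Cells of 1 library are not replicates, so counts were summed per library and class and tested with edgeR 4.0.16 (quasi-likelihood, TMM, Benjamini-Hochberg over all genes tested), with DESeq2 1.42.0 as an alternative. Shares were compared by exact two-sided permutation tests. The labels do not state that libraries came from separate mice, so p-values measure the spread between these libraries, which may be technical. Named genes were those of the lists and, per comparison and direction, at most 10 called genes ranked by size of change (or, with fewer than 5 called, the 5 of smallest p), without overlap and at a mean of 10 CPM or more; for the class difference this was narrowed to genes called in both sets of cells after their values were seen. Intervals cover counting error only. Doublets were predicted with Scanpy 1.11.5 and kept, except in an alternative. The scripts were tested on simulated data. Leaving out shallower copies, entering all 6 libraries and leaving out Coch cells were chosen after seeing the data. Same-numbered libraries correlated in their deviations from the group means at 0.0792, 0.0114 and 0.255 in Pi16 cells and 0.160, 0.0577 and 0.237 in other stroma, so the numbers did not pair libraries there by a minimum of 0.1, and at 0.237, 0.184 and 0.381 in all stroma, where they did. The labels do not say what a number marks. Fits of the class difference with the replicate block, and lists read without SARAWT PBS 1 and 3, were also chosen after seeing the data.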

Additional observations from a re-analysis of the deposited data

Results flagged for a closer look

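By a test of the difference itself (edgeR interaction, shallower copies left out) the bleomycin change differed between Pi16 cells and other stroma for 36 genes. Of these, 6 were singled out after their values were seen, as called with all cells too and with at least 3 UMIs in each group of Pi16 cells. All 6 lost their call without SARAWT PBS 1 (adjusted p 0.0740 to 0.124), and none passed without SARAWT PBS 1 and 3 (0.0829 to 0.370), a fit with 1 PBS library left. The differences on the log2 scale were -5.53 for Anxa3, -2.98 for Timp1, -3.58 for Col8a1, -3.38 for Plat, 2.42 for Srpx and 2.99 for Trps1. The classes were split by Pi16, itself lower over all stroma under bleomycin, and the part of this split in the differences was not tested. Human ZFYVE9, which a SARAWT library should lack, stood at 706 CPM in the Pi16 cells of the library labelled SARAWT PBS 1, and the 3 other libraries whose gene list held it were at 44.7 to 98.8 CPM.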

How the results depend on the processing

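The share of Pi16 cells was lower under bleomycin in all 27 alternatives among stroma (-46.2 to -15.6 points) and all 25 among kept cells (-5.82 to -2.09 points). Of those with 3 libraries a group, 4 of 11 and 3 of 9 gave an exact permutation p of 0.2. Single genes were refitted for 24 results on 19 genes, and each kept its direction in all 591 alternative fits, while other genes named, such as Mfap5, Igfbp4 and Apod, were not followed through the alternatives. These fits reuse the libraries in which the genes were chosen, so the kept direction is no independent support. Where 1 library was left in a group, the test assumed that it varies like the other group. Counts of genes called moved more, and the cause was not tested. In Pi16 cells (1 gene) DESeq2 called 34, no filter on low counts 184, the gene list as a covariate 5, Pi16 of at least 2 UMIs 2, all shared barcodes left out 33, at least 20 cells per library 2, any library 2, and all 8 libraries 42. Without predicted doublets 0 were called (448 at an unadjusted p under 0.05). Leaving out 1 library gave 0 to 2, and 0 without SARAWT PBS 1, 2 or 3 or SARAWT bleomycin 2 (283, 388, 360 and 768 at an unadjusted p under 0.05). Without shallower copies 2 were called, with SARAWT bleomycin 2 as the only bleomycin library, and with all 6 libraries 3, with DESeq2 54, the gene list 19, Coch cells out 5 (DESeq2 50), SARAWT PBS 1 and 3 out 9, and 1 library out 1 to 9 (9 without SARAWT PBS 3, 5 without SARAWT bleomycin 2).

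In other stroma (14) DESeq2 called 267, no filter 947, the gene list 122, and leaving out 1 library 0 to 119. Without shallower copies 6 were called, with libraries of at least 5 Pi16 cells 0 (1295 at an unadjusted p under 0.05), and with all 6 libraries 265, with DESeq2 474, the gene list 301, SARAWT PBS 1 and 3 out 8, and 1 library out 0 to 392. For the class difference (32) DESeq2 called 73, no filter 232, the gene list 237, and 1 library out 2 to 158. Without shallower copies 3 were called, with at least 5 Pi16 cells 2, and with all 6 libraries DESeq2 called 82, the gene list 196, SARAWT PBS 1 and 3 out 15, Coch cells out with DESeq2 111, and 1 library out 2 to 75. In all stroma (1370) leaving out 1 library gave 0 to 1025 (0 without SARAWT bleomycin 1, 2383 at an unadjusted p under 0.05), and without shallower copies 35 to 1009 and, without SARAWT PBS 1 and 3, 144.

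With the replicate block, which the labels do not say is a shared litter or day, 8 genes were called in Pi16 cells, 908 in other stroma, 179 for the class difference and 2001 in all stroma, and without shallower copies 15, 393, 258 and 2008, while the shares kept their differences of -20.1 and -2.68 points (exact sign-flip p = 0.25, the smallest 3 pairs allow). For the class difference the block let the difference between classes vary with the number, which leaves few residual degrees of freedom. With 3 to 11 Pi16 cells in each bleomycin library, 1 UMI was worth 5.90 to 17.3 CPM, and 3.03 CPM over the 3 libraries together. Levels near these values thus rested on very few UMIs.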
